A study of Mus musculus with 7 samples.

Results

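Polycomb repressive complex 2 (PRC2) was followed through 6 of its genes, Ezh2, Ezh1, Eed, Suz12, Jarid2 and Aebp2, taken by name from 22556 genes counted in each of 7 libraries of chromatin-associated RNA (ChrRNA-seq). All 6 were counted in every library and all 6 passed the filters on low counts. The libraries came from undifferentiated female mouse embryonic stem cells (mESCs), F1 hybrids whose genomes come from 129/Sv (Dom, for domesticus) and CAST/EiJ (Cast), in which doxycycline at 1 µg/mL had induced Xist, the RNA that silences the X chromosome, for 10 days. In iXist-ChrX-Dom (n = 4) the inducible TetO promoter drives Xist from the Dom X chromosome, and in iXist-ChrX-Cast (n = 3) from the Cast X chromosome. Each line is a clone of one hybrid parental line. The cells had been kept on Mitomycin C-inactivated fibroblast feeders, which were taken off by pre-plating. No uninduced library was analysed here, so no value is a change caused by Xist. One label of replicates 3 and 4 in iXist-ChrX-Dom reads d1, whereas their titles and treatment fields give 10 days, which were used. Replicates 1 and 2 and replicates 3 and 4 follow different naming schemes in their files and were treated as 2 sample sets, although the labels state no batch. For replicates 1 and 2 of iXist-ChrX-Cast the deposited files are also named for a clone whose name is 1 character away from the clone of their labels and of replicate 3. The labels were followed, and whether these libraries come from another clone cannot be told from them, so that in this line set and clone may coincide.

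PRC2 places methyl groups on lysine 27 of histone H3, a mark of repressed genes that also spreads over an X chromosome coated by Xist. Its catalytic subunit is EZH2 or the related EZH1, which needs EED and SUZ12 to work. EED binds the finished mark, SUZ12 holds the complex together, and JARID2 and AEBP2 are accessory subunits of one form of the complex that bind chromatin and raise its activity. In cycling cells such as mESCs, EZH2 is the main enzyme, whereas EZH1 is better known from resting cells.

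The counted spans were placed on mm10. Ezh2 lies on chromosome 6 at 47530273 to 47595030 (minus strand) and Aebp2 on chromosome 6 at 140622662 to 140677418 (plus strand). Suz12 (79993105 to 80034123, plus strand) and Ezh1 (101191114 to 101226450, minus strand) lie on chromosome 11, Eed on chromosome 7 at 89954653 to 89980976 (minus strand) and Jarid2 on chromosome 13 at 44730773 to 44921643 (plus strand). Each span runs from transcript start to transcript end, introns included, and none overlaps another counted gene. None of the 6 is X-linked.

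Some PRC2 genes are known targets of the E2F cell cycle factors. RefSeq promoters (GRCm38.p6, 300 bases, coding strand from 5′ to 3′) are given for 3 genes, Ezh2, Suz12 and Ezh1. Their allelic counts moved between lines or sample sets. Capitals mark the letters TTTCCCGC, TTTCGCGC, TTTGCCGC or TTTGGCGC, read on both strands.
Ezh2, chr6:47594981-47595280, minus strand: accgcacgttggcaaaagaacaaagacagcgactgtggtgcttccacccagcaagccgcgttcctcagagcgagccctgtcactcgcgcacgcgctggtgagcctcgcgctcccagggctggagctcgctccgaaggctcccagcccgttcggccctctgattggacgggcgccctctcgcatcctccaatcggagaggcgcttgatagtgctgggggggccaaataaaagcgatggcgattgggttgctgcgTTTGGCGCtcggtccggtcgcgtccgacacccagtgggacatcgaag
Suz12, chr11:79992856-79993155, plus strand: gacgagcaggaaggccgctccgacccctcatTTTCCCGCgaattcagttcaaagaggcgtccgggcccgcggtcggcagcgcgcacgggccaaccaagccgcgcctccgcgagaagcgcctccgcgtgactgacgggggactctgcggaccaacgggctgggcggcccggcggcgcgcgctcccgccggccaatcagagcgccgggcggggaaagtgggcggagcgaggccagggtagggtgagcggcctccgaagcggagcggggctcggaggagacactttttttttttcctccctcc
Ezh1, chr11:101226414-101226713, minus strand: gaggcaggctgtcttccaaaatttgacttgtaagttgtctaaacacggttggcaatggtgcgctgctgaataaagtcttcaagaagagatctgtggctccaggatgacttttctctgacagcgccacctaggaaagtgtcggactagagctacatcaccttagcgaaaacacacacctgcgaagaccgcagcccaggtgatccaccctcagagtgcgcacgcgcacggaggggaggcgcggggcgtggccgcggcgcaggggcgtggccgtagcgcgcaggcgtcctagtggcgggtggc
Ezh2 held TTTGGCGC and Suz12 held TTTCCCGC, once each, and these letters were not in the windows of Ezh1, Eed, Jarid2 or Aebp2. Of 32851 mouse promoter windows of this length, 744 (2.26%) held at least 1 match. The Suz12 window had 41 CpG dinucleotides, the Ezh2 window 31, Jarid2 24, Ezh1 23, Eed 17 and Aebp2 4, against a median of 7 over all windows. Jarid2 and Aebp2 have several listed promoters, and the window at the counted start was used. A match of letters is a description and not a binding site.

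Libraries held 14877384 to 24309806 fragments assigned to genes, of which 44.2% to 46.4% were assigned to an allele. The labelled cell type was checked on marker genes. Summed levels of 9 ES cell markers were 1407 to 1828 CPM (counts scaled to library size with edgeR's normalisation factors), those of 9 feeder fibroblast markers 30.4 to 41.9 CPM and those of 5 primitive endoderm markers 37.6 to 55.0 CPM. The 6 neural markers summed to 28.6 to 56.3 CPM, with Sox1 at 0 in every library. Between the lines edgeR called 1 of 9 ES cell markers at an adjusted p under 0.05, against 2.92% of all genes. This was Tbx3 on chromosome 5 (log2 difference -1.06, edgeR adjusted p = 0.00316). Its mean was 63.2 ± 4.89 CPM in iXist-ChrX-Dom and 132 ± 20.1 CPM in iXist-ChrX-Cast (SD). With the sample set as a term 4 were called, against 15.8% of all genes. Tbx3 (-1.03), Klf4 (-0.57) and Tfcp2l1 (-0.46) were lower in iXist-ChrX-Dom, and Zfp42 (0.30) was higher.

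The 6 genes differed most in their level. Divided by the length of the counted span, Suz12 stood highest at 12.9 ± 1.01 CPM per kb (SD, n = 7 libraries), followed by Jarid2 at 10.5 ± 1.69 and Eed at 9.36 ± 0.58. Aebp2 followed at 3.42 ± 0.195 CPM per kb, close to Ezh2 at 3.26 ± 0.401. Ezh1, the alternative enzyme, was lowest at 0.679 ± 0.160 CPM per kb.

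Neighbours in this order were compared within libraries by an exact sign-flip permutation test of their log2 levels per kb (two-sided, n = 7, smallest possible p = 0.0156, 5 pairs). Eed exceeded Aebp2 in 7 of 7 libraries by 1.45 ± 0.0692 on the log2 scale (SD), a ratio of 2.73 (exact p = 0.0156, Benjamini-Hochberg adjusted p = 0.0391). Ezh2 exceeded Ezh1 in 7 of 7 libraries by 2.29 ± 0.484, a ratio of 4.89 (exact p = 0.0156, adjusted p = 0.0391). Of these 2 ratios, that between the enzymes varied more, from 1.68 to 3.00 in log2. Suz12 exceeded Jarid2 in 6 of 7 libraries by 0.31 (exact adjusted p = 0.0521) and Jarid2 exceeded Eed in 6 of 7 by 0.15 (exact adjusted p = 0.0586). Aebp2 exceeded Ezh2 in 5 of 7 libraries by 0.077, with single libraries from -0.12 to 0.31 (exact permutation p = 0.203). After adjustment these 3 pairs did not pass. Without it Suz12 over Jarid2 (exact p = 0.0313) and Jarid2 over Eed (exact p = 0.0469) were under 0.05. Nascent reads over introns make the level per kb depend on the annotated span, and from allelic fragments per kb the order began with Jarid2 and placed Ezh2 above Aebp2, with 4 of 5 pairs apart.

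**Figure D1:**
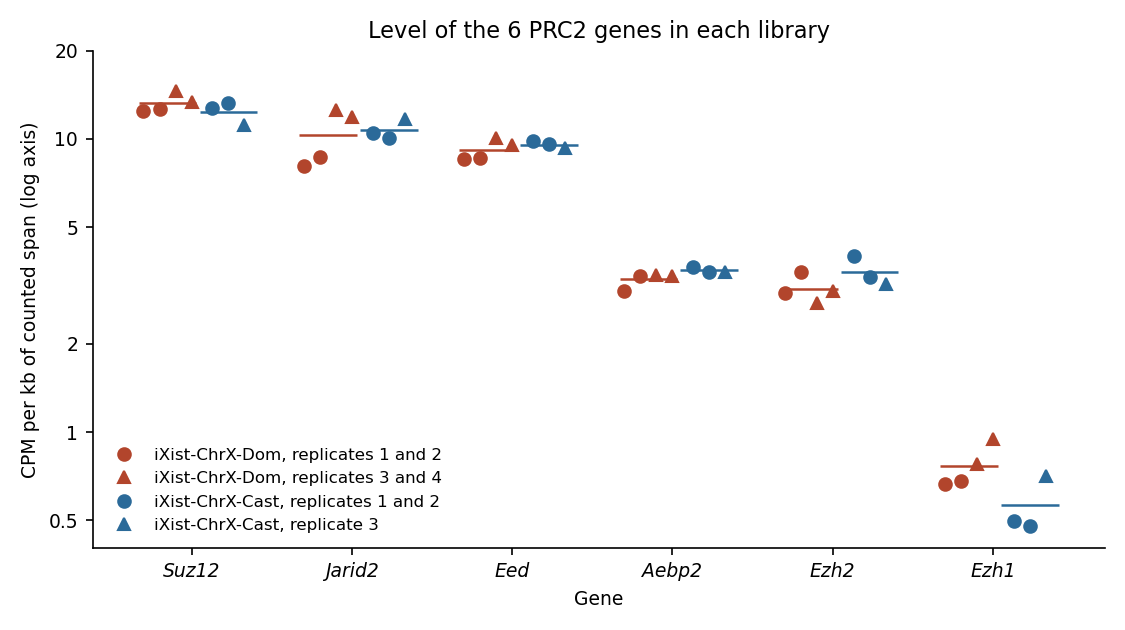
Level of each gene in CPM per kb of counted span (log axis) in the 7 libraries, with a line at the mean of each cell line. Suz12, Jarid2 and Eed lie above Aebp2 and Ezh2 in every library, and Ezh1 lies lowest, between 0.477 and 0.943 CPM per kb.

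Whether the line, and with it the X chromosome that carries inducible Xist, was accompanied by a difference in PRC2 genes was asked on total counts. In these bulk samples fewer expressing cells and less RNA per cell cannot be told apart. For Ezh1, iXist-ChrX-Dom replicates 1 to 4 gave 23.5, 24.0, 27.5 and 33.3 CPM, and iXist-ChrX-Cast replicates 1 to 3 gave 17.6, 16.9 and 25.1 CPM. The lines overlapped only through iXist-ChrX-Cast replicate 3, which lay above iXist-ChrX-Dom replicates 1 and 2. The mean was 1.37-fold higher in iXist-ChrX-Dom, and the log2 difference of 0.45 (SE 0.18) did not pass edgeR's quasi-likelihood test (adjusted p = 0.237).

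None of the 6 genes passed that test between the lines, where 2.92% of 15186 genes tested did. Without adjustment 1 gene, Ezh1, was under 0.05 in edgeR, and DESeq2 called 0 of 6. With the sample set as a term, which called 15.8% of all genes, Ezh1 was higher in iXist-ChrX-Dom by 0.39 on the log2 scale (SE 0.11, edgeR adjusted p = 0.0209) and the other 5 again did not pass. Ezh1 also passed within replicates 1 and 2 alone (0.47, edgeR adjusted p = 0.0494) and without iXist-ChrX-Cast replicate 3 (0.65, edgeR adjusted p = 0.0426). With replicate number as a block it gave 0.35 and did not pass (edgeR adjusted p = 0.0761).

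Ezh2 levels in iXist-ChrX-Dom were 193, 227, 179 and 196 CPM, and those of iXist-ChrX-Cast were 257, 219 and 207 CPM. The highest library, iXist-ChrX-Cast replicate 1, stood apart from the rest, and the lines overlapped. The log2 difference was -0.20 (SE 0.12, edgeR adjusted p = 0.418).

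Aebp2 was at 165, 187, 188 and 187 CPM in iXist-ChrX-Dom, whereas iXist-ChrX-Cast gave 199.7, 193 and 192 CPM. All 3 iXist-ChrX-Cast libraries lay above all 4 of the other line, yet the log2 difference was only -0.10 (SE 0.091, edgeR adjusted p = 0.630). Without the low first replicate the iXist-ChrX-Dom values lay within 1 CPM of each other.

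Eed, with 224, 227, 265 and 252 CPM against 258, 252 and 245 CPM, overlapped between the lines (log2 difference -0.06, SE 0.096). Suz12, with 512, 520, 596 and 549 CPM against 523, 543 and 459 CPM, overlapped as well (0.10, SE 0.10). Jarid2 ranged from 1545 to 2406 CPM in iXist-ChrX-Dom, wider than the 1930 to 2224 CPM of iXist-ChrX-Cast (-0.06, SE 0.16). The edgeR adjusted p-values of these 3 genes were 0.822, 0.694 and 0.901.

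In a fit with line and set both as terms, the sample sets differed more than the lines. Between the sets 30.3% of all genes and 2 of 6 members were called, and between the lines 15.8% and 1 of 6. Jarid2 was measured at 1545 and 1655 CPM in iXist-ChrX-Dom replicates 1 and 2, at 2406 and 2277 CPM in replicates 3 and 4, and in iXist-ChrX-Cast at 2004 and 1930 CPM in replicates 1 and 2 and 2224 CPM in replicate 3. In each line replicates 1 and 2 lay lower, and across lines the sets did not overlap. In a fit with the line as a term, Jarid2 was lower in replicates 1 and 2 by a log2 difference of -0.40 (SE 0.10, edgeR adjusted p = 0.00908).

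Ezh1 was likewise lower in replicates 1 and 2, with a log2 difference of -0.43 (SE 0.10, edgeR adjusted p = 0.00647). Between the sets 30.3% of all genes tested were called, so that 2 of 6 PRC2 genes is a share close to the background. Ezh2 gave 0.18 (SE 0.090, edgeR adjusted p = 0.144), Eed -0.09, Aebp2 -0.04 and Suz12 -0.01, none of which passed. Within iXist-ChrX-Dom alone the Jarid2 difference was -0.56 (edgeR adjusted p = 0.00190) and that of Ezh1 -0.36 (adjusted p = 0.0635). Without iXist-ChrX-Dom replicate 1 Jarid2 no longer passed (-0.34, edgeR adjusted p = 0.0582), nor did Ezh1 without iXist-ChrX-Cast replicate 3 (-0.36, adjusted p = 0.0731). With the set, summed marker levels of iXist-ChrX-Dom moved as well. Neural markers were at 56.3 and 50.6 CPM in its replicates 1 and 2 and at 35.8 and 33.7 CPM in replicates 3 and 4, and ES cell markers at 1435 and 1407 CPM and at 1697 and 1726 CPM. Among the ES cell markers of iXist-ChrX-Dom, Zfp42 went from 428 and 435 CPM to 600 and 583 CPM, whereas Tfcp2l1 stayed at 297 to 306 CPM. Of 9 ES cell markers edgeR called 2 between the sets, a smaller share than the 30.3% of all genes. Both, Pou5f1 (-0.50) and Zfp42 (-0.35), were lower in replicates 1 and 2. In iXist-ChrX-Cast neural markers ran from 28.6 to 32.6 CPM. The 3 neural markers tested did not move one way between the sets, since Pax6 (0.97) and Nes (0.67) were higher in replicates 1 and 2 and Tubb3 (-0.43) was lower, each called by edgeR. The part of other cell types in these differences was not tested. If d1 were the right time point of replicates 3 and 4, set and induction time could not be told apart in that line.

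**Figure D2:**
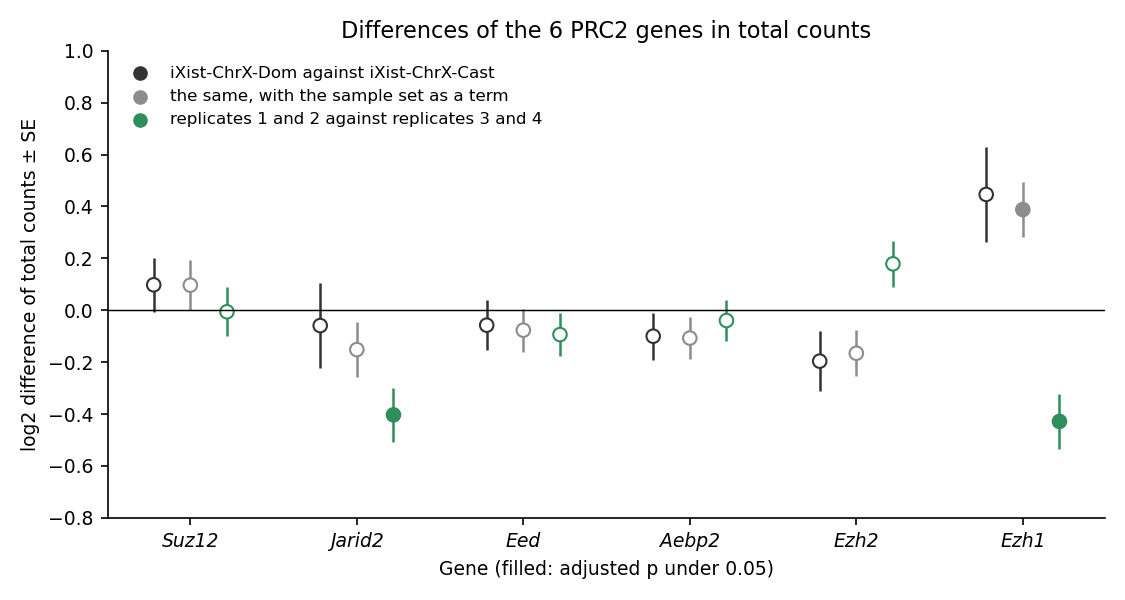
Log2 difference of total counts with its SE for each gene, between the lines, between the lines with the sample set as a term, and between replicates 1 and 2 and replicates 3 and 4; filled points passed edgeR's test at an adjusted p of 0.05. Jarid2 (-0.40) and Ezh1 (-0.43) are lower in replicates 1 and 2, and Ezh1 alone passes between the lines once the set is a term (0.39), which it does not with replicate number as a block (0.35).

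Allelic counts showed differences that total counts did not. The Cast share, the percentage of allele-assigned fragments that carry Cast bases, was read against the share at which the alleles balance over all genes, 46.9% to 48.1% by library. Allelic fragments of a gene numbered 1233 or more in every library except for Ezh1, where they were 115 to 332, so that a single Ezh1 share has a wide Wilson 95% interval (22.8% to 39.4% at its widest in iXist-ChrX-Cast). These intervals cover counting error only.

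Within a line, edgeR called 4 of 6 genes in each, where 58.1% and 52.9% of 12437 genes tested were called, so that an allelic bias as such was common. Eed favoured the Cast allele in both, with shares of 52.3% to 56.6% and of 53.6% to 54.1% and a log2 Cast/Dom ratio of 0.38 in each (SE 0.045 and 0.053, edgeR adjusted p = 2.45e-07 and 3.30e-06). Aebp2 gave 0.15 and 0.14 (edgeR adjusted p = 0.00911 and 0.0372), values that fell to 0.021 and -0.014 when both alleles were given the same library size. Jarid2, with 12959 or more allelic fragments, was the most even gene, at 46.0% to 47.6% in all 7 libraries (-0.03 and -0.05, neither called), although with a shared library size it favoured Dom in both lines (-0.16 and -0.21).

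Ezh1 favoured the Dom allele, and more so in iXist-ChrX-Cast. Its Cast shares in iXist-ChrX-Dom were 37.7%, 44.8%, 43.4% and 41.3%, and those of iXist-ChrX-Cast were 30.4%, 28.3% and 36.1%. The lines did not overlap. The log2 Cast/Dom ratio of iXist-ChrX-Dom was -0.34 and that of iXist-ChrX-Cast -0.91, a difference of 0.58 (SE 0.17, edgeR adjusted p = 0.0209).

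Suz12 also differed, in the opposite direction. Its shares in iXist-ChrX-Dom were 42.7%, 44.3%, 44.8% and 43.5%, and those of iXist-ChrX-Cast were 48.1%, 47.7% and 47.1%. Again the lines did not overlap. All 4 iXist-ChrX-Dom shares lay below the balance of their library, and those of iXist-ChrX-Cast lay on either side of it. The ratio was -0.23 in iXist-ChrX-Dom (edgeR adjusted p = 2.19e-05) and 0.020 in iXist-ChrX-Cast, where it did not pass and turned to -0.14 with a shared library size (edgeR adjusted p = 0.0120). The difference between lines was -0.25 (SE 0.058, edgeR adjusted p = 0.00310).

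These 2 of 6 genes compare with 18.1% of all genes called between the lines. An exact two-sided permutation test of the Cast share gave p = 0.0286 for each, the smallest that 4 against 3 libraries allow (adjusted p = 0.0857 over the 6 genes). How many of all genes separate the lines or the sample sets without overlap was not counted. In levels, the mean Cast-assigned Ezh1 of iXist-ChrX-Dom was 5.44 ± 1.43 CPM and that of iXist-ChrX-Cast 3.02 ± 1.21 CPM (SD), while Dom-assigned Ezh1 was 7.52 ± 1.76 against 6.33 ± 1.28 CPM. For Suz12, the Cast-assigned means were 78.5 and 79.6 CPM, and Dom-assigned levels ran from 86.7 to 112.6 CPM against 77.8 to 92.9 CPM. On either allele the levels of the lines overlapped for both genes. The call of Ezh1 was lost without iXist-ChrX-Dom replicate 2 (edgeR adjusted p = 0.0632) or 3 (0.0530) and without iXist-ChrX-Cast replicate 1 (0.0788) or 2 (0.115), whereas Suz12 remained called without any 1 library. limma on log ratios called Ezh1 (adjusted p = 0.0390) and not Suz12 (adjusted p = 0.115), and neither when blocked by replicate number (adjusted p = 0.124 and 0.349, where the unadjusted p of Ezh1 was 0.0209). With replicate number by allele as terms in edgeR both were called (adjusted p = 0.0209 and 0.00701).

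**Figure D3:**
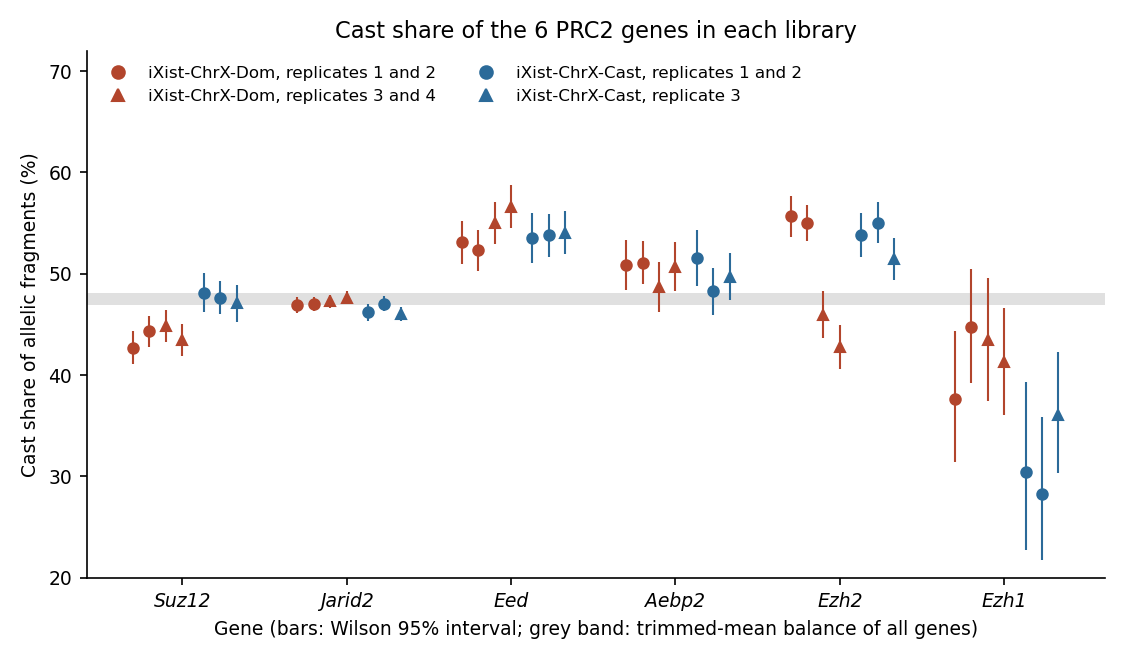
Cast share of allelic fragments (%) for each gene and library, with Wilson 95% intervals; the grey band spans the balance of all genes over libraries, 46.9% to 48.1%. The lines separate for Suz12 and Ezh1, whereas for Ezh2 the iXist-ChrX-Dom replicates 1 and 2 lie apart from replicates 3 and 4.

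Both genes lie on chromosome 11, and the medians of their neighbours had the same signs, although the called neighbours were no larger a share than the 18.1% of all genes. Of 111 other genes with allelic counts within 5 Mb of Suz12, the median difference between the lines was -0.17, and 16 were called lower and 1 higher. Of 151 within 5 Mb of Ezh1 the median was 0.15, with 24 called higher and 3 lower. Suz12 was in the midst of its neighbours, 38 of which were lower still, whereas Ezh1 exceeded 143 of the 151. The change of sign lay on the near side of Ezh1, where Fbxl20 (at -3.09 Mb from Ezh1, difference -0.46) was followed by Cdk12 (at -2.98 Mb, difference 1.11).

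In windows of 10 Mb the median allelic difference was negative in each of the 10 windows from 0 to 100 Mb of chromosome 11, between -0.21 and -0.16, and positive in the 3 windows beyond, at 0.23, 0.36 and 0.44. Of 263 genes from 100 Mb on, 63 were called higher and 0 lower in Cast/Dom ratio in iXist-ChrX-Dom. Over all genes 18.1% were called in either direction, and of 973 on the whole chromosome 70 were called higher and 80 lower. Total counts of chromosome 11 had a median difference of 0.17 between the lines, and of 0.25, 0.27 and 0.37 in the last 3 windows. In its own surroundings Ezh1 (0.45) lay above 153 of 188 genes in total counts, whose median was 0.24. These windows were laid out after the values of Ezh1 and Suz12 were seen. DNA copy number was not measured, and its part in the differences of this chromosome was not tested. Around the other members, 7 of 41 genes near Ezh2 (all lower, median of the 41 -0.33), 4 of 30 near Aebp2, 0 of 22 near Eed and 0 of 47 near Jarid2 differed in allelic ratio between the lines.

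Ezh2 differed between the sample sets rather than between the lines. Its Cast shares were 55.7% and 55.0% in iXist-ChrX-Dom replicates 1 and 2, 46.0% and 42.8% in replicates 3 and 4, and 53.8%, 55.1% and 51.4% in iXist-ChrX-Cast. Cast was the higher allele in 5 libraries, and Dom in iXist-ChrX-Dom replicates 3 and 4, the libraries with a label that reads d1. Between those pairs of iXist-ChrX-Dom libraries the mean Cast-assigned level went from 61.6 to 44.7 CPM and the Dom-assigned level from 49.7 to 56.2 CPM. In iXist-ChrX-Cast it went from 70.5 CPM in replicates 1 and 2 to 57.6 CPM in replicate 3 for Cast, and from 59.1 to 54.4 CPM for Dom.

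A fit of the Cast/Dom ratio with the set as a term was added after these shares had been seen. With a single set term for both lines, it gave Ezh2 a log2 difference of 0.48 (SE 0.073, edgeR adjusted p = 0.000334). Ezh2 was the only member called, against 1.31% of 12437 genes. Leaving out each library kept the call, with differences of 0.39 (without iXist-ChrX-Dom replicate 4) to 0.66 (without iXist-ChrX-Cast replicate 3, which leaves the sets compared in iXist-ChrX-Dom alone). limma on the log ratios gave 0.45 with an unadjusted p = 0.0124 and an adjusted p = 0.436, so that the call rests on edgeR. The line difference of Ezh2 was -0.22 without the set as a term and -0.15 with it, and neither passed (edgeR adjusted p = 0.344 and 0.174). The ratio within iXist-ChrX-Dom was 0.14 over all 4 libraries and 0.45 over replicates 1 and 2 only, and within iXist-ChrX-Cast it was 0.36 (edgeR adjusted p = 0.00447).

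Ezh2 exceeded 37 of 41 neighbours within 5 Mb, whose median difference between sets was 0.090. Among these, Igf2bp3 (0.39), Tra2a (0.30) and Mpp6 (0.28) were examples called in the direction of Ezh2, and Snx10 (-0.38) was called in the other. In windows of 10 Mb of chromosome 6 the median set difference was 0.21, 0.19 and 0.19 between 50 and 80 Mb, just beyond Ezh2, and between -0.05 and 0.07 elsewhere, with 0.034 in the window of Ezh2 itself.

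**Figure D4:**
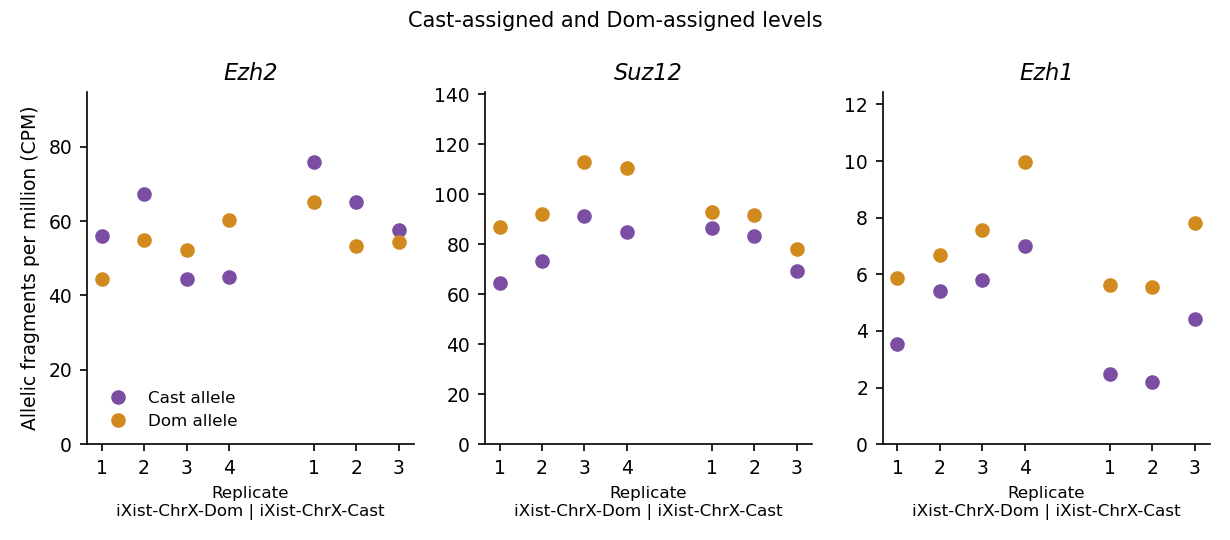
Cast-assigned and Dom-assigned levels in CPM of Ezh2, Suz12 and Ezh1, by line and replicate. For Ezh2 the Cast allele is above the Dom allele in all libraries but iXist-ChrX-Dom replicates 3 and 4; for Suz12 and Ezh1 the Dom allele is above in all 7.

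**Figure D5:**
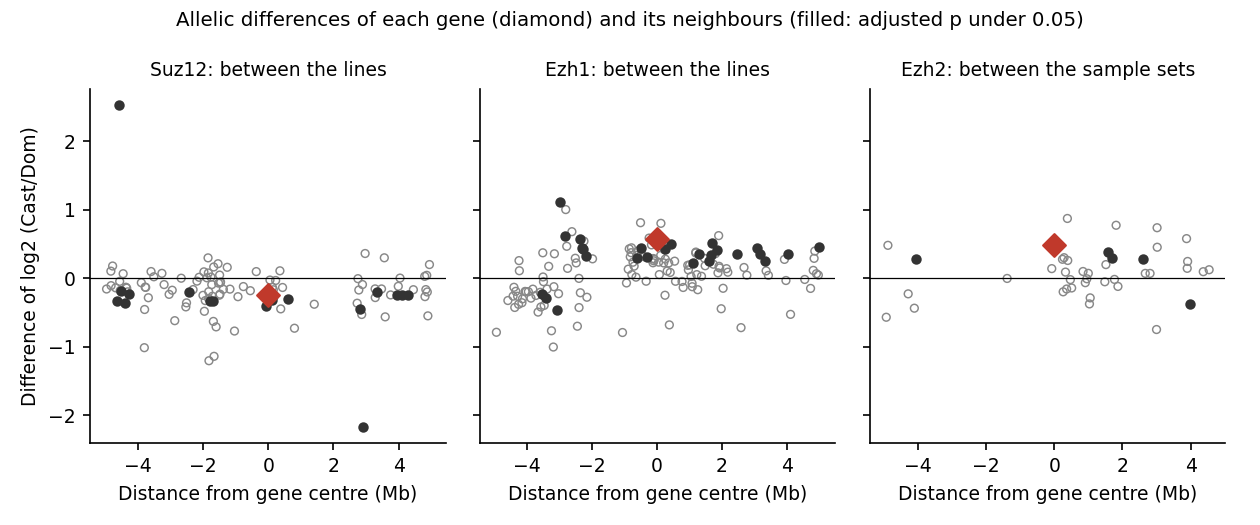
Difference in log2 Cast/Dom ratio of Suz12, Ezh1 and Ezh2 (diamonds) and of genes within 5 Mb, by distance in Mb, between the lines (left and centre) and between the sample sets (right); filled circles passed edgeR's test. Neighbours of Suz12 lie mostly below 0 (median -0.17) and those of Ezh1 mostly above it (median 0.15), with a step near 3 Mb before Ezh1.

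The other PRC2 genes were taken as a list of 9: the histone-binding subunits Rbbp4 and Rbbp7, the Polycomb-like proteins Phf1, Mtf2 and Phf19, E130012A19Rik (Epop), AU022751 (Ezhip, which encodes an inhibitor of the enzyme), Lcor and Lcorl. Per length Mtf2 was the highest at 19.1 ± 2.63 CPM per kb, above all 6 members, and Rbbp7 reached 12.4 ± 2.15. Phf1 at 0.683 ± 0.181, AU022751 at 0.745 ± 0.262 and Phf19 at 0.970 ± 0.334 CPM per kb were near Ezh1.

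Between the lines 0 of 9 were called by edgeR, with a median difference of -0.21 (over all genes -0.0028). Lcor, Lcorl and Mtf2 were under 0.05 without adjustment, and DESeq2 called 1, Mtf2. With the set as a term, 2 were called (15.8% of all genes), both lower in iXist-ChrX-Dom and both on chromosome 5. Mtf2, which guides PRC2 to CpG islands, was read at 722, 740, 797 and 736 CPM in iXist-ChrX-Dom, against 974, 998 and 840 CPM in the other line. The lines did not overlap, and the difference was -0.31 (SE 0.094, edgeR adjusted p = 0.0319). Its Cast share ran from 42.2% to 43.5% in iXist-ChrX-Dom, below the 58.2% to 61.5% of iXist-ChrX-Cast. Lcorl differed by -0.36 (SE 0.092, edgeR adjusted p = 0.0128), although iXist-ChrX-Cast replicate 3 (305.7 CPM) lay below iXist-ChrX-Dom replicate 2 (319 CPM), and had Cast shares of 44.1% to 48.1% and 62.3% to 65.6%. Over all of chromosome 5 the median difference was -0.40 in total counts (964 genes) and -1.05 in the Cast/Dom ratio (843 genes), where Mtf2 gave -1.02 and Lcorl -1.09. The part of DNA copy number was not tested here either.

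Between the sample sets 5 of 9 were called, against 30.3% of all genes. Phf19 (-0.84), Phf1 (-0.65) and E130012A19Rik (-0.64) were lower in replicates 1 and 2, whereas Rbbp7 (0.41) and Lcorl (0.33) were higher. Phf19 was read at 13.2 and 14.5 CPM in iXist-ChrX-Dom replicates 1 and 2 against 22.9 and 23.1 CPM in replicates 3 and 4, and at 14.3 and 17.5 CPM against 31.9 CPM in iXist-ChrX-Cast. The sets did not overlap. Rbbp7 is X-linked, and 15.9 ± 3.09% of its allelic fragments (SD, n = 3) came from the Xist-coated Cast X chromosome in iXist-ChrX-Cast.

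Genes of the companion complex PRC1, which ubiquitinates histone H2A, were counted next. Between the lines 1 of 25 tested was called, the X-linked Bcor, a corepressor in one form of PRC1 (-0.49, edgeR adjusted p = 0.0440), and the list median was -0.03. With the set as a term there were 7, against 15.8% of all genes, of which Kdm2b (-0.48), Bcor (-0.47), Bcorl1 (-0.61), Pcgf3 (-0.33) and Rnf2 (-0.34) were lower in iXist-ChrX-Dom, and Pcgf5 (0.33) and Scmh1 (0.27) were higher. Kdm2b and Pcgf3 lie on chromosome 5. Between the sets 5 of 25 were called, a lower share than the 30.3% of all genes, with Kdm2b (-0.43), Cbx7 (-0.42) and Bcorl1 (-0.57) lower in replicates 1 and 2 and Yaf2 (0.49) and Scml2 (0.33) higher.

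Of 6 genes that act against Polycomb marks (the H3K27 demethylase genes Kdm6a and Kdm6b, the H2A deubiquitinase genes Bap1 and Usp16, and Asxl1 and Asxl2, cofactors of Bap1), 0 were called by edgeR or DESeq2 between the lines and 0 between the sets, with 1 and 3 under 0.05 in edgeR without adjustment. With the set as a term 1 of 6 was called, a share close to the 15.8% of all genes. This was Kdm6b, which was lower in iXist-ChrX-Dom (6.19 ± 0.879 against 8.54 ± 1.63 CPM, -0.52, edgeR adjusted p = 0.0184). The related X-linked Kdm6a, known to escape X inactivation, had Cast shares of 55.9% to 57.0% in iXist-ChrX-Dom against 38.1% to 39.6% in the other line.

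Polycomb targets, developmental genes that carry the PRC2 mark in mESCs, were low. All 62 listed summed to 46.2 to 80.2 CPM in a library, and 14 to 23 of them were at 0. Only 13 passed the filter on low counts, and 0 of these were called by edgeR between the lines (median 0.17). Pax6 and Cdkn2a were under 0.05 without adjustment, and DESeq2 called these 2. With the set as a term 2 of 13 were called, a share close to the 15.8% of all genes. Pax6 (14.3 ± 5.13 against 6.38 ± 2.38 CPM, log2 difference 1.33, edgeR adjusted p = 1.27e-05) and Cdkn2a (11.4 ± 3.71 against 6.42 ± 1.50 CPM, 0.93, adjusted p = 0.000277) were higher in iXist-ChrX-Dom. Between the sets 5 of 13 were called, against 30.3% of all genes. Pax6 (0.97), Cdkn2a (0.76) and Wt1 (0.59) were higher in replicates 1 and 2, and Gata4 (-0.78) and Gata6 (-0.73) were lower. Both Gata genes are also on the primitive endoderm list, whose other called marker, Dab2 (0.68), was higher. Pax6 is also on the neural list, of which Nes was called as well with the set as a term (0.55), and the part of other cell types in these values was not tested.

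Genes whose level followed each member most closely over the 7 libraries were found by the root mean square (RMS) difference of log2 CPM, each gene centred on its own mean, among 8954 genes of at least 10 CPM. For Ezh2 these were Fancl (RMS 0.044) and Dnajc25 (0.047), where the RMS of Ezh2 about its own mean was 0.16. Ezh1, the most variable member (0.32), was followed by Dus2 (0.049) and Myo5b (0.055), and Jarid2 (0.22) by Fhit (0.044) and Klhl22 (0.045). By this measure a gene that varies little lies close to any other such gene, so values of different members are not comparable. For the steadier members the nearest were Fbxw2 (0.025) and Carf (0.034) for Suz12, Papola and Phf8 (both 0.031) for Eed, and Cmpk1 (0.022) and Lpcat1 (0.027) for Aebp2. These are likenesses over 7 libraries that share lines and sample sets.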

How the data were processed

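ChrRNA-seq libraries had been made with a stranded total RNA kit. The authors removed ribosomal reads with Bowtie2 2.3.2, kept unique STAR 2.4.2a alignments to N-masked mm10, assigned fragments to alleles with SNPsplit and counted them over whole transcript spans on the sense strand with featureCounts 1.5.2. The deposited counts are raw fragments per gene, in total and by allele. The deposited allelic ratio tables hold fractions for X-linked genes and served to tell which allele column is Cast, and for Rbbp7 and Kdm6a. Library totals were 14877384 to 24309806 fragments.

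Samples were grouped by line. The 6 members, the gene lists and the tests were chosen with earlier results of these data known. Total counts were fitted with edgeR 4.0.16 (filterByExpr, TMM, quasi-likelihood test, Benjamini-Hochberg adjusted p, 15186 genes) on R 4.3.3. Allelic counts were fitted likewise with a term per library, normalised per allele column, over 12437 genes of at least 10 allelic fragments in every library. Named were the 6 members, called genes of each list (at most 8) and 2 like genes a member. Alternatives were DESeq2 1.42.0, limma 3.58.1 (offset 0.5 on counts), other filters and library sizes, left-out libraries and blocks. Replicates of the same number deviated together from their line means (r = 0.329, 0.275 and 0.466 over 15186 genes), so the numbers were taken to pair samples. Different numbers of the same sample set did so as much (0.323 to 0.505), and numbers of different sets correlated negatively, so this pairing is not told apart from the set. The authors call the iXist-ChrX-Dom libraries replicate experiments and the iXist-ChrX-Cast libraries replicates, without saying whether they were separate cultures. The p-values therefore measure the spread between these libraries. Fits were tested on simulated data.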

Additional observations from a re-analysis of the deposited data

Results flagged for a closer look

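Of the members' results, the Cast/Dom ratio of Ezh1 and that of Suz12 differed between the lines in a test of the difference itself, by 0.58 and -0.25 on the log2 scale. Each quantity of the 4 iXist-ChrX-Dom libraries was also examined for a library far from the others by Dixon's ratio (critical value 0.829), 12 quantities in all. Aebp2 in replicate 1 (165 CPM) lay below the other 3 libraries, and the Aebp2 Cast share in replicate 3 (48.7%) did so as well. Chance marks about 1 in 20 groups.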

How the results depend on the processing

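Between the lines in total counts, 0 of 6 members were called, and 1 (Ezh1) with the sample set as a term, within replicates 1 and 2 only, and without iXist-ChrX-Cast replicate 3 (0 or 1 over left-out libraries). With the replicate block 0 were called, and Ezh1 gave 0.35 (edgeR adjusted p = 0.0761). Between the sample sets 2 were called, and 1 in iXist-ChrX-Dom alone, and 1 or 2 over left-out libraries. In the allelic difference between the lines 2 were called, 1 by limma, 0 by limma with the replicate block, 0 by the exact permutation test, 2 with the replicate block in edgeR, and 1 or 2 over left-out libraries. Within iXist-ChrX-Cast 4 were called, and 2 without replicate 2. In the allelic difference between the sets 1 was called, and 0 by limma, over all libraries or those of iXist-ChrX-Dom. Of the level order, 2 of 5 pairs were apart, 5 without division by length and 4 from allelic fragments. Over left-out libraries 0 were. With 6 libraries a pair can pass this test only where nearly all of the 5 pairs reach its smallest possible p. With the same library size for both alleles, Suz12 (-0.14) and Aebp2 (-0.014) within iXist-ChrX-Cast turned sign. That setting places a ratio of 0 at equal counts of both alleles. The main fit places it at the balance over all genes, a Cast share of 46.9% to 47.8% in the iXist-ChrX-Cast libraries. The replicate block, fitted only for the 2 line comparisons, changed no other call of a member there. Pairing by replicate number was not possible for the set and within-line comparisons because replicate numbers lie within sets and occur once in a line. The edgeR allelic fits did pair both alleles of a library through its term. Over all genes, 443 were called between the lines by edgeR, 1094 by DESeq2 and 2398 with the set as a term. Ezh1's allelic depth of 115 to 332 fragments limits its share, and 4 against 3 libraries limit exact tests.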
